A study of Mus musculus with 4 samples.

Results

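The probes described here carry descriptions that name enzymes of the mitochondrial respiratory chain or ATP synthase. They were measured in mouse liver after a diet with conjugated linoleic acid (CLA). Members were all non-control probes whose printed description named a NADH dehydrogenase (ubiquinone) or NADH-ubiquinone oxidoreductase, a ubiquinol-cytochrome c reductase, cytochrome c-1, a cytochrome c oxidase, or a proton-transporting ATP synthase. This gave 62 of the 20868 non-control probes on the array. They fell into complex I with 19 probes, complex III with 6, complex IV with 23 and complex V with 14, by the printed descriptions alone. Not all are established subunits: 5 complex IV probes are classed as weak similarity to a subunit, 2 as assembly factors, and a complex V probe as a pseudogene. A matched RefSeq accession or the description itself gave 34 members a gene symbol, and the other 28 are called here by the subunit their description names. The alpha subcomplex 4 probe is kept in complex I because its description places it there.

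Male mice of a polygenic obese line were fed for 14 days either a diet with 1% trans-10, cis-12 CLA or a control diet with 1% linoleic acid, and no age was given. Total liver RNA of 4 or 5 mice was pooled for each labelling, and 1 CLA pool was hybridised against 1 control pool on each of 4 Agilent 2-colour oligonucleotide arrays. The CLA pool carried Cy5, the red dye, on arrays 1 and 2, and Cy3, the green one, on the other 2. Whether some arrays share a pool is not stated, so p-values measure the spread between 4 arrays, which may be technical, and that number of arrays limits the precision. Unless another quantity is named, values below are log2 CLA over control, so that a positive value is a higher level with CLA.

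Complex I takes electrons from NADH and passes them to ubiquinone, complex III passes them on to cytochrome c, and complex IV hands them to oxygen. Complexes I, III and IV pump protons out of the mitochondrial matrix, and ATP synthase, also called complex V, lets them flow back through its membrane part F0 to drive ATP synthesis in its F1 head. Liver mitochondria use this chain to burn fatty acids and to pay for glucose and urea synthesis. The trans-10, cis-12 isomer of CLA is known for lowering body fat in mice, whereas linoleic acid is the common dietary fatty acid that CLA is an isomer of.

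No member differed between the diets after correction over all probes. In the limma fit 0 of 62 members had an adjusted p under 0.05, with 0.130 as the lowest, against 14 of all 20214 tested probes, or 0.0693%. At an unadjusted p under 0.05, 6 members lay higher with CLA (Uqcrc1, Cyc1, Ndufb7, a 13 kDa-A subunit probe, Atp5b and a dim subunit b probe), where the background over all tested probes was 8.76%. The polypeptide VIb similarity probe was the 1 member that lay lower at that threshold, where the background was 7.17%. Both counts are near or below the number that the background gives for 62 probes. Fitted values ran from -0.30 to 0.32, and 44 of 62 lay within 0.1 of 0. The 95% intervals of 61 members stayed within 1.5-fold in either direction, and that of Atp5b reached past it. The median member value was 0.03 and that of all tested probes 0.01, with 38 of 62 members above 0 (61.3%) against 52.3% of all tested probes. In bulk tissue, fewer cells of a type and less RNA per cell cannot be told apart.

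**Figure D1:**
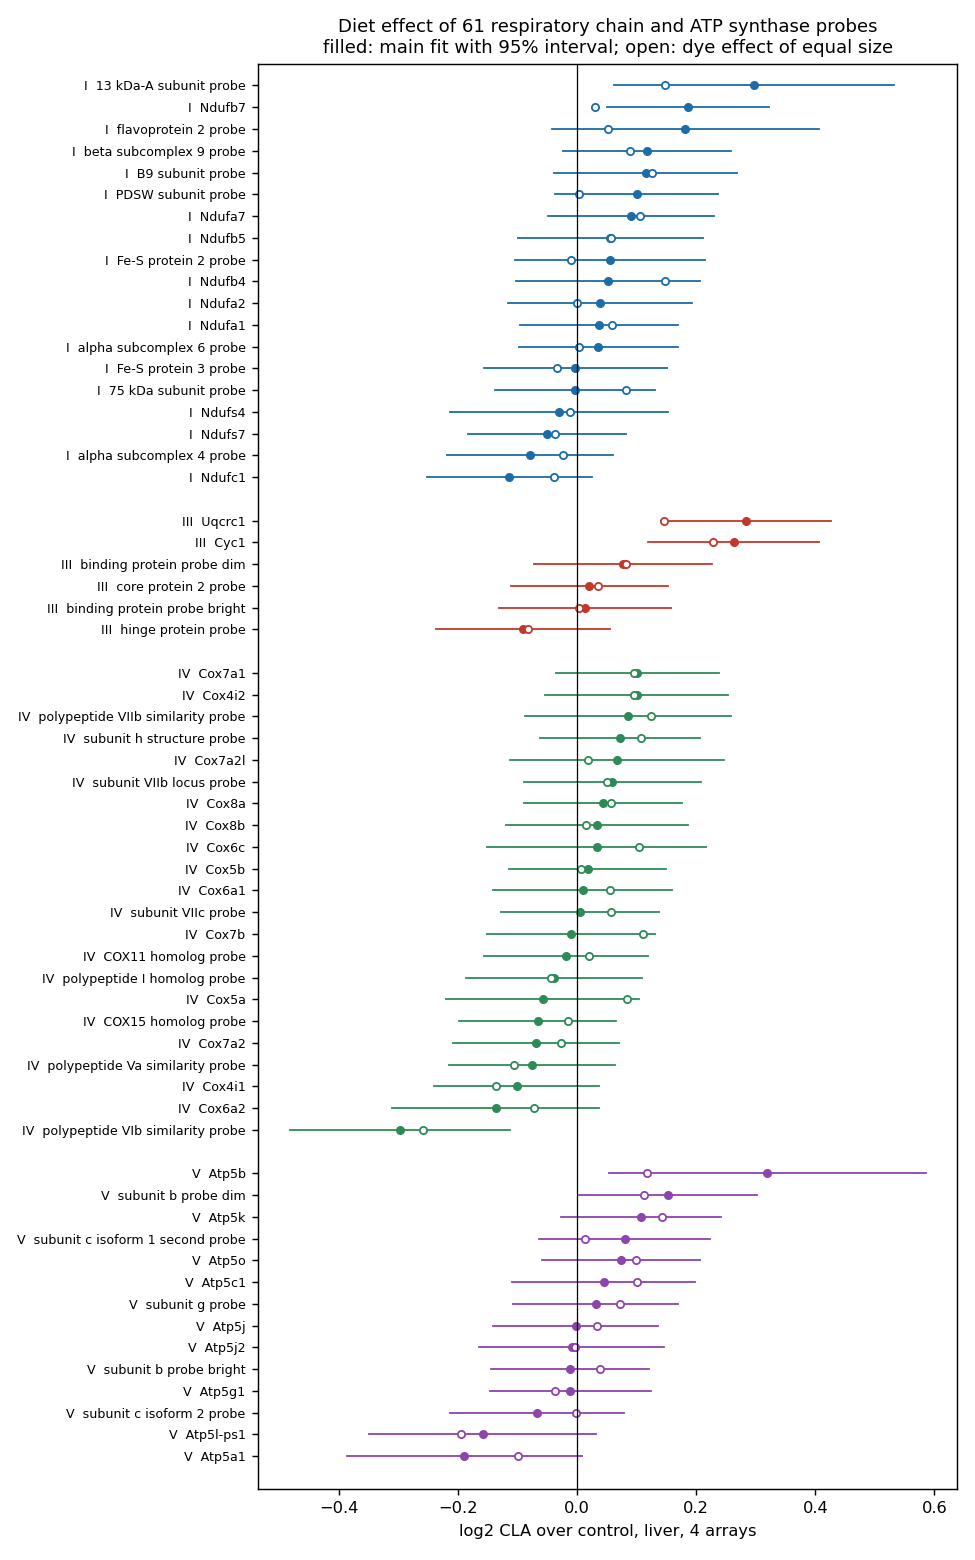
Diet effect (log2 CLA over control) of 61 of the 62 probes (all but the saturated Cox2 probe), ordered within complexes I, III, IV and V. Filled points are the fitted values with 95% intervals over 4 arrays, and open points are values from a fit with the dye effect brought to equal size on the arrays. The intervals of 7 probes leave out 0, and none passed the correction over all probes.

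The sign of these small values rests on how each array was scaled. The values above come from a loess curve fitted within each array, which removes any trend of the ratio with brightness. When each array was instead centred on its median, the median member stood at -0.17, with 13 of 62 members above 0, 49 below 0, and again 0 passing the correction. Of the 62 members, 49 lay among the 5054 brightest tested probes, when all were split by brightness into 4 equal classes. In that class the median over all 5054 probes was -0.16 with median centring and 0.01 with loess, and the median over its 49 members was -0.20 and 0.03. Every direction given below holds for loess scaling, and median centring turned the median of each of the 4 complexes negative.

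A dye effect was larger than the diet effect in 50 of 62 members (80.6%), compared with 67.9% of all tested probes. The dye effect is the log2 ratio of Cy5 to Cy3 that a probe shows whichever diet carries the dye. It had unequal size on the arrays: the slopes of the 4 arrays on the mean dye effect were 0.779, 0.734, 1.18 and 1.30. The fit gives each probe 1 dye effect for all 4 arrays. Diet and dye effects correlated at r = -0.634 across the 62 members and at r = -0.526 across all tested probes; both are descriptions, since probes share the same 4 arrays. An alternative fit first divided each array's ratios by its slope, which brings the dye effect to equal size, and its values are given beside those of the leading members. With it 42 of 62 members lay above 0, and 54 kept the sign of the main value.

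**Figure D2:**
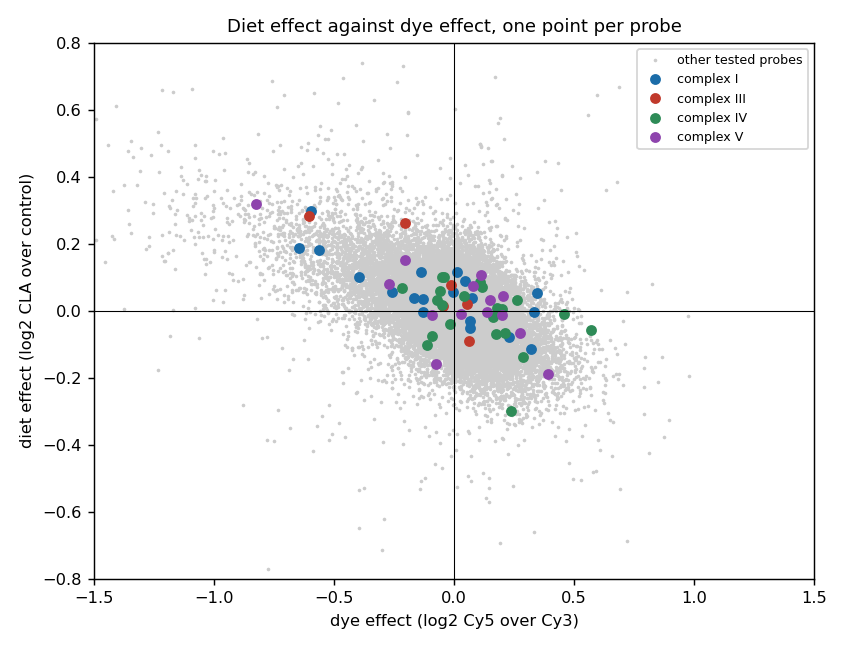
Diet effect (log2 CLA over control) against dye effect (log2 Cy5 over Cy3), 1 point per probe. Grey points are the other tested probes within the plotted range and coloured points 61 members by complex, without the saturated Cox2 probe. Atp5b, Ndufb7 and Uqcrc1 lie at the upper left, with dye effects of -0.83, -0.65 and -0.61 and diet effects of 0.32, 0.19 and 0.28.

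The 2 lowest p-values of all members were in complex III. Its core protein 1, Uqcrc1, is a large matrix-facing subunit of the enzyme. Uqcrc1 measured -0.41 and -0.24 on arrays 1 and 2, where CLA was in Cy5, and 0.85 and 0.93 on arrays 3 and 4, where it was in Cy3. The dye orientations thus lay on opposite sides of 0. Its diet effect was 0.28 ± 0.06 (SE, n = 4 arrays; limma adjusted p = 0.130) beside a dye effect of -0.61, and it was 0.15 with a dye effect of equal size and 0.07 with median centring. Cyc1, cytochrome c1, is the haem protein that hands electrons to cytochrome c. It measured -0.04, 0.15, 0.47 and 0.46 on arrays 1 to 4, so that array 1 alone was below 0, and its diet effect was 0.26 ± 0.06 (SE, n = 4; limma adjusted p = 0.144). Its dye effect of -0.21 was smaller than that of Uqcrc1, and Cyc1 was at 0.23 with equal dye size and at 0.04 with median centring. The hinge protein, a small acidic subunit that sits beside cytochrome c1, had the lowest value of the complex. It measured -0.09, 0.03, -0.25 and -0.06, with a diet effect of -0.09 ± 0.06 (SE, n = 4; limma adjusted p = 0.484). A core protein 2 probe was at 0.02. The 2 probes for the ubiquinone-binding protein gave 0.08 and 0.01, of which the higher was the dimmer probe. Over the complex, 5 of 6 probes were above 0 with a median of 0.05, or -0.08 with median centring.

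Complex I has core subunits that carry the flavin and iron-sulphur clusters, and accessory subunits that surround them. The 5 core members were the flavoprotein 2 probe at 0.18 ± 0.10 (SE, n = 4), the Fe-S protein 2 probe at 0.06, the Fe-S protein 3 probe and the 75 kDa subunit probe both near 0.00, and Ndufs7 at -0.05. Their median was near 0.00, against 0.05 for the 14 accessory members. The flavoprotein 2 probe, which names a subunit of the NADH-oxidising tip, measured -0.67 and -0.09 on arrays 1 and 2 and 0.63 and 0.85 on arrays 3 and 4. The signs of these measured ratios followed the dye, and with equal dye size the diet effect of the probe was 0.05. The difference between core and accessory members was not tested.

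Among accessory subunits, all 5 members of the beta subcomplex, part of the membrane arm, were above 0 with loess and below 0 with median centring. They were Ndufb7, the beta subcomplex 9 probe, the PDSW subunit probe, Ndufb5 and Ndufb4, with a median of 0.10, and with equal dye size their median was 0.06. Of beta subunits outside the rule, Ndufb8 was at 0.10, and Ndufb2, Ndufb3 and Ndufb11 were at -0.05, -0.07 and -0.13. Ndufb7 measured -0.48 and -0.44 on arrays 1 and 2 and 0.78 and 0.89 on arrays 3 and 4, so the dye orientations did not overlap. Its diet effect was 0.19 ± 0.06 (SE, n = 4; limma adjusted p = 0.210), and it was 0.03 with equal dye size and -0.01 with median centring. The beta subcomplex 9 probe measured 0.05, -0.10, 0.30 and 0.21, with a diet effect of 0.12 ± 0.06 (SE, n = 4; limma adjusted p = 0.373), and it was below 0 with median centring. The remaining 3 members of the beta subcomplex were at 0.10, 0.06 and 0.05. Among the 6 alpha subcomplex members, which include the B9 subunit probe at 0.11 (well above background on only 2 arrays with CLA and 1 with control) and Ndufa7 at 0.09, 5 were above 0, and the alpha subcomplex 4 probe was at -0.08.

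The highest complex I value belonged to the 13 kDa-A subunit probe, which names a small subunit of the matrix arm. It measured -0.50, -0.10 and 0.89 on arrays 1, 2 and 4 and was dropped from array 3 as an outlier spot. Its diet effect over 3 arrays was 0.30 ± 0.10 (SE; limma adjusted p = 0.238), or 0.15 with equal dye size. The lowest was Ndufc1, a small membrane-arm subunit, which measured 0.27, 0.14, -0.40 and -0.46. Its diet effect was -0.11 ± 0.06 (SE, n = 4; limma adjusted p = 0.376), and with equal dye size it was -0.04. Ndufc1 thus showed the mirror image of Ndufb7, with a dye effect of 0.32 where Ndufb7 had -0.65.

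**Figure D3:**
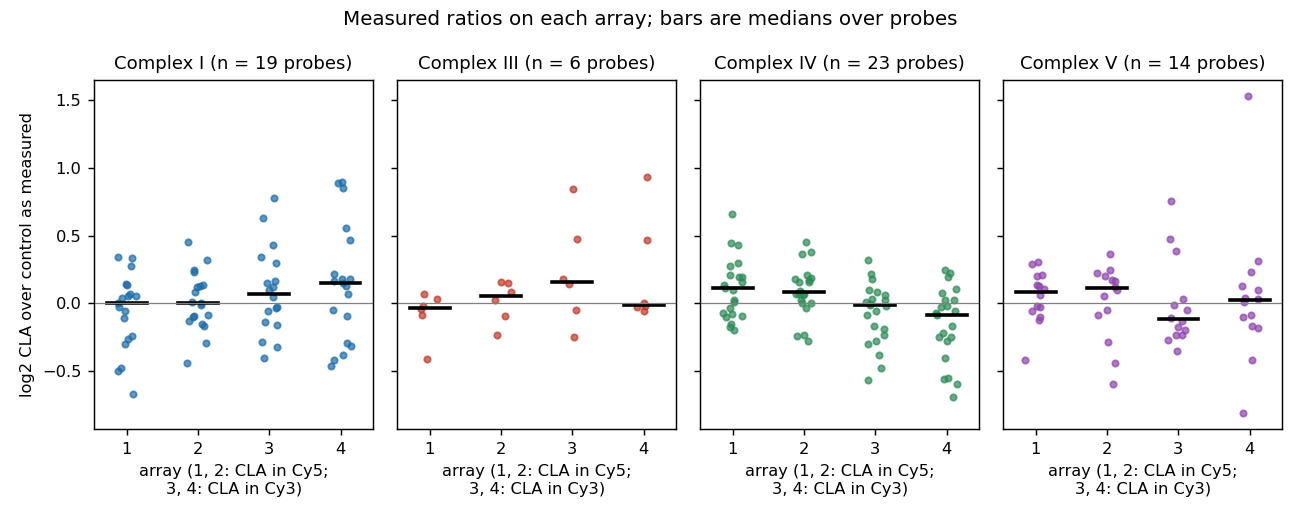
Measured log2 CLA over control of each member on each of the 4 arrays, by complex, before any dye term. Short bars are medians over all probes of a complex, and the points of the saturated Cox2 probe are not drawn. CLA was in Cy5 on arrays 1 and 2 and in Cy3 on arrays 3 and 4, and the complex IV medians run from 0.11 on array 1 to -0.09 on array 4.

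Complex IV was the largest group. Its median was 0.01 with 13 of 23 probes above 0, and its medians as measured on arrays 1 to 4 were 0.11, 0.08, -0.01 and -0.09. Leaving out array 3 brought the median to -0.02, and median centring to -0.16. These figures include the saturated Cox2 probe described below, and without it the median of the main fit was still 0.01. A group of 10 probes, the widely used nuclear subunits together with Cox7a2l, a factor that joins complexes III and IV, had a median of 0.01. Cox7a2l was the highest at 0.07, followed by Cox8a at 0.04, and Cox4i1 was the lowest at -0.10. Cox5b, Cox6a1, the subunit VIIc probe and Cox7b, small subunits around the catalytic core, lay within 0.02 of 0. Cox5a measured 0.66 and 0.36 on arrays 1 and 2 and -0.56 and -0.69 on arrays 3 and 4. These signs followed the dye, and its diet effect was -0.06 ± 0.07 (SE, n = 4). COX11 and COX15 homologs, which help to install the copper and haem centres, were at -0.02 and -0.07. The 5 probes classed as weak similarity to a subunit ran from -0.30 to 0.09, with a median of 0.06.

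The mitochondrial genome encodes the catalytic subunits, and its Cox2, which takes electrons from cytochrome c, had a probe on the array. The Cox2 spot was saturated in the control channel on all 4 arrays and in the CLA channel on 2, so no ratio is given for it. The polypeptide I homolog probe, which resembles another mitochondrial-genome subunit, was at -0.04 ± 0.06 (SE, n = 4).

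The polypeptide VIb similarity probe had the lowest fitted value of all 62 members. Its description names only a weak resemblance to cytochrome c oxidase polypeptide VIb, a subunit that joins the enzyme's monomers, and the authors' deposited table calls it Cox6b2. It measured 0.16, -0.27, -0.48 and -0.59 on arrays 1 to 4, with array 1 alone above 0. Its diet effect was -0.30 ± 0.08 (SE, n = 4; limma adjusted p = 0.170), and it was -0.26 with equal dye size. It depended on the background correction, with -0.09 when none was subtracted and -0.51 on the scanner's processed signals, and it was -0.19 without array 2. In the authors' deposited table, which was checked to run as CLA over control, its ratio was 0.565 with a p of 5e-05. In log2 that ratio is -0.82. That table holds 775 of 20868 probes, or 3.71%, and this was the 1 member in it. Cox6b1, which pairs with Cox6b2 but is no member by its description, was at 0.20 ± 0.06 (SE, n = 4, limma adjusted p = 0.193). With equal dye size Cox6b1 was at 0.16, and the difference within this pair was not tested.

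Several complex IV subunits come as isoform pairs, of which the heart, muscle or lung form is usually scarce in liver. Cox7a1, the heart and muscle form of subunit VIIa, measured 0.11, 0.00, 0.18 and 0.11, above 0 on all 4 arrays, with a diet effect of 0.10 ± 0.06 (SE, n = 4; limma adjusted p = 0.420). The same sign on all 4 arrays was seen for 2 members above 0, the other being the B9 subunit probe, which is near background, and for 0 below 0; over all probes measured on 4 arrays the shares were 4.61% above and 4.72% below. The liver form Cox7a2 was at -0.07 ± 0.06 (SE, n = 4), and the related Cox7a2l, a factor that joins complexes III and IV, was at 0.07 ± 0.08 over the 3 arrays that measured it. Cox4i2, the lung form of subunit IV, was at 0.10 ± 0.07 and the widely used Cox4i1 at -0.10 ± 0.06 (SE, n = 4 each). The Cox4i2 probe was well above background on 3 of 4 arrays in each diet, and its value was 0.02 without background subtraction, 0.25 with median centring and 0.29 on the processed signals. Cox6a2, the heart and muscle form of subunit VIa, measured 0.30, 0.00, -0.30 and -0.55, with a diet effect of -0.14 ± 0.08 (SE, n = 4; limma adjusted p = 0.392), and the liver form Cox6a1 was at 0.01 ± 0.07. Cox8b, the heart and muscle form of subunit VIII, was at 0.03 ± 0.07 and Cox8a at 0.04 ± 0.06 (SE, n = 4 each). All 8 intervals in these pairs include 0, and the differences within pairs were not tested.

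**Figure D4:**
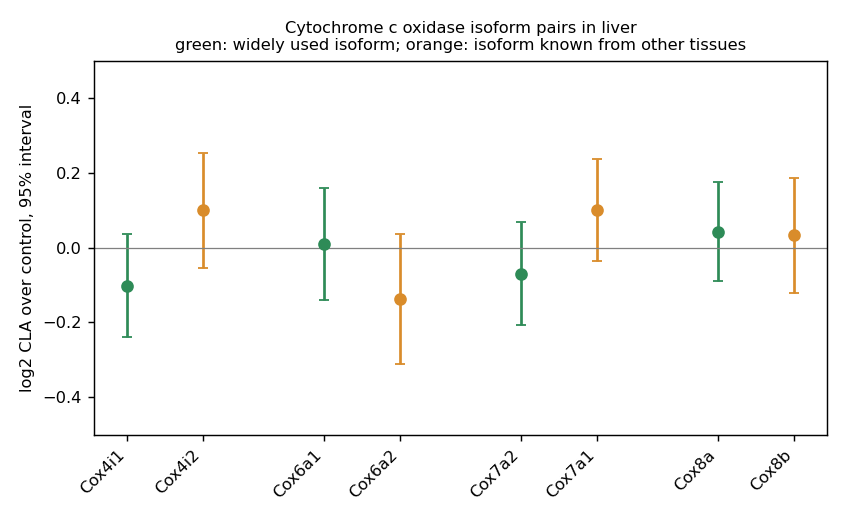
Diet effect (log2 CLA over control, with 95% intervals over 4 arrays) of 4 pairs of cytochrome c oxidase isoforms, the widely used form in green and the form known from other tissues in orange. All 8 intervals include 0.

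ATP synthase had 7 of 14 probes above 0 and a median of 0.01, which was -0.01 without array 2 and -0.20 with median centring. Its F1 head alternates 3 alpha with 3 beta subunits, and their probes lay at the opposite ends of the complex. Atp5b, the catalytic beta subunit, measured -0.42 and -0.59 on arrays 1 and 2 and 0.76 and 1.53 on arrays 3 and 4. Its diet effect was 0.32 ± 0.12 (SE, n = 4; limma adjusted p = 0.250), the highest fitted value of all members, beside their largest dye effect of -0.83. It was 0.12 with equal dye size, 0.09 with median centring, 0.12 without array 4 and 0.51 without array 3. Atp5a1, the alpha subunit, measured 0.30, 0.10, -0.35 and -0.81, the opposite order of signs. Its diet effect was -0.19 ± 0.09 (SE, n = 4; limma adjusted p = 0.325), and it was -0.10 with equal dye size, -0.42 with median centring, -0.07 without array 4 and -0.31 without array 3. The gamma subunit Atp5c1, the rotating shaft, was at 0.04, and Atp5o, part of the stalk that holds the head, was at 0.07.

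The F0 members had a median of -0.01 over 10 probes. Subunit b, part of the outer stalk, had 2 probes. The dim probe measured -0.05, -0.05, 0.48 and 0.23, with a diet effect of 0.15 ± 0.06 (SE, n = 4; limma adjusted p = 0.305), and it was 0.04 without background subtraction, 0.26 with median centring and 0.33 on the processed signals. The bright probe was at -0.01 ± 0.06, and their 95% intervals overlap. Subunit c, which forms the rotating proton-carrying ring, had Atp5g1 at -0.01 ± 0.06, another isoform 1 probe at 0.08 ± 0.06 and an isoform 2 probe at -0.07 ± 0.06 (SE, n = 4 each). Atp5k, a small membrane subunit, was at 0.11 ± 0.06, and Atp5j and Atp5j2 were within 0.01 of 0. Atp5l-ps1, which is annotated as a pseudogene and may share sequence with its parent gene, was at -0.16 ± 0.08.

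**Figure D5:**
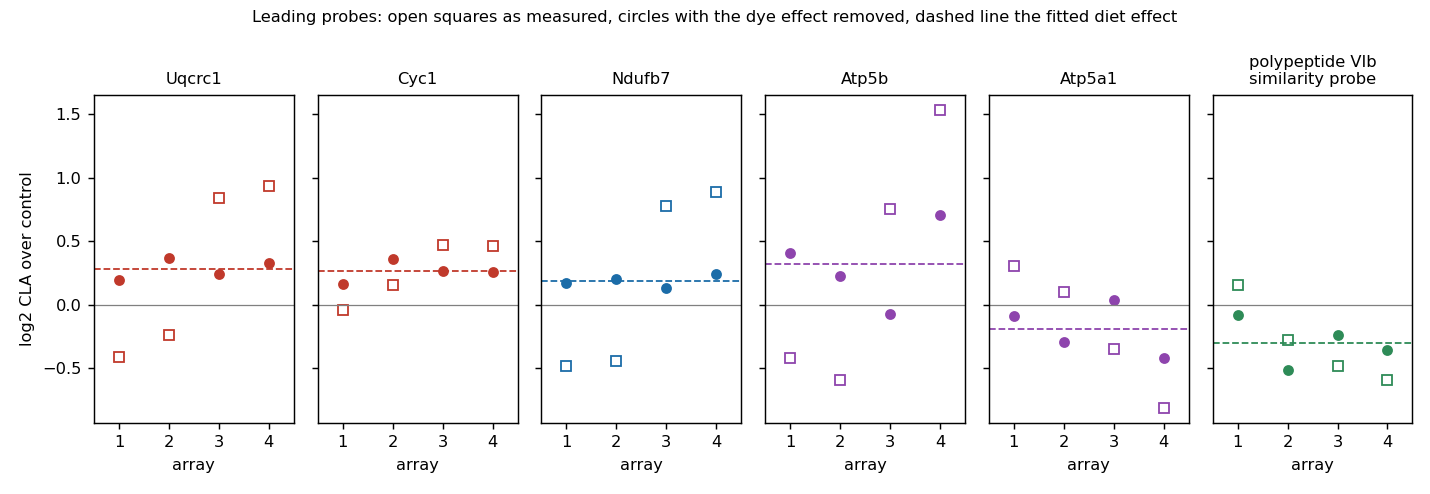
Log2 CLA over control of 6 leading probes on each of the 4 arrays, as measured (open squares) and with the probe's dye effect removed (circles); the dashed line is the fitted diet effect. Uqcrc1, Ndufb7 and Atp5b lie below 0 as measured on arrays 1 and 2 and above 0 on arrays 3 and 4, and Atp5a1 runs the other way.

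Nuclear respiratory genes are known to share promoter motifs for NRF-1, for ETS factors such as GABP, and for YY1. The promoters of the leading genes of complexes III, I and V are shown because these genes hold the highest values of their complexes among members with a promoter in RefSeq (GRCm38.p6). Each line runs 5′ to 3′ on the plus strand from 250 bases before the gene's start to 50 bases after it, and capitals mark a motif match. The windows are chr9:108936398-108936697 for Uqcrc1, chr8:83566508-83566807 for Ndufb7 and chr10:128083057-128083356 for Atp5b.
Uqcrc1: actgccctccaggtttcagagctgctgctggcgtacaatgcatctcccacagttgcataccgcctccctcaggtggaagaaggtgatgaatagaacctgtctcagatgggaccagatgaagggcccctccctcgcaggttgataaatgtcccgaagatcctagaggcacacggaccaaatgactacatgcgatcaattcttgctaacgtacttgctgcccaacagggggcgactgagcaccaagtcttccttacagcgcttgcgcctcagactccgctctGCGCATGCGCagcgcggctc
Ndufb7: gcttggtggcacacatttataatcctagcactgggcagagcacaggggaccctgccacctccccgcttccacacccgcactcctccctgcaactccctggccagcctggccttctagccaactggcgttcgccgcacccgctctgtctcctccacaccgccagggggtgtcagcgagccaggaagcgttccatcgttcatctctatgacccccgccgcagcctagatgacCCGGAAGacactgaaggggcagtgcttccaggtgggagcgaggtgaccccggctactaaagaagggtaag
Atp5b: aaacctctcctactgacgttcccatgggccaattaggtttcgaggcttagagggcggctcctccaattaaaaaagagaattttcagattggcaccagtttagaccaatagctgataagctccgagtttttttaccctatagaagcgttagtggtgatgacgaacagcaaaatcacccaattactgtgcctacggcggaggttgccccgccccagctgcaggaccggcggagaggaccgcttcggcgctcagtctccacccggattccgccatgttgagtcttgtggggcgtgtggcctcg

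The capitals in Uqcrc1 are overlapping matches on both strands to the NRF-1 core GCGCATGCG, which start at positions 31 and 32 counted from the gene's first transcribed base as 1, and those in Ndufb7 are the ETS core CCGGAAG, which starts 20 bases before that base. The Atp5b window holds none of the 3 motifs searched. On both strands, 26 member genes with 29 promoters were searched. The NRF-1 core stood in 3 promoters (Atp5k, Cox6a1 and Uqcrc1), or 10.3%, against 1.75% of all 32851 RefSeq promoters. The ETS core was in 5 (Atp5j, Atp5k, Cox6a1, Cox8a and Ndufb7), or 17.2%, against 8.86%, and the YY1 core AAGATGG in 6, or 20.7%, against 6.34%. The genes with the NRF-1 core had diet effects of 0.28 for Uqcrc1, 0.11 for Atp5k and 0.01 for Cox6a1. Matches of letters do not show binding.

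Further genes of the same pathway were looked at by symbol. Another 20 probes of subunit genes, whose older descriptions lack the words of the rule and which were picked after the data were seen, had a median of 0.06 with 15 of 20 above 0, against 52.3% of all tested probes. Of these 0 passed the correction, with 0.142 as the lowest adjusted p, and 5 lay higher at an unadjusted p under 0.05: Ndufa10, Ndufa5, Cox6b1, Uqcr11 and Ndufa13, while 0 lay lower. Over all tested probes these shares were 8.76% and 7.17%. The lowest value was that of Ndufc2, at -0.17 ± 0.08, or -0.09 with equal dye size. Ndufa10, a complex I accessory subunit, measured -0.31 and -0.28 on arrays 1 and 2 and 0.73 and 0.88 on arrays 3 and 4, with signs as for Uqcrc1. Its diet effect was 0.26 ± 0.06 (SE, n = 4, limma adjusted p = 0.142), or 0.13 with equal dye size. Ndufa5, Uqcr11 and Ndufa13 had the same order of signs on the arrays, and with equal dye size they were at 0.14, 0.07 and 0.07. In the authors' deposited table Ndufa13 had a ratio of 1.45 and Ndufb8 of 1.31, or 0.53 and 0.39 in log2. The fitted values here were smaller, at 0.16 ± 0.07 and 0.10 ± 0.06. Ndufb8 also measured below 0 on arrays 1 and 2 and above 0 on arrays 3 and 4, and with equal dye size it was at 0.04. The authors' table also gives the name Atp5b to an EST probe that is no member, with a ratio of 0.573, or -0.80 in log2. This is opposite in direction to the Atp5b member above. The EST probe's fitted value was -0.21 ± 0.08 (SE, n = 4, limma adjusted p = 0.268).

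Lists of partner genes held no gene that passed the correction. Of complex II, which feeds electrons from succinate, 3 of 4 genes were tested and all were above 0, with Sdhb at 0.18 ± 0.06 and Sdhc at 0.11 ± 0.07 (SE, n = 4 each). With equal dye size Sdhb was at 0.12 and Sdhc at 0.11. Of electron carriers and their supply 6 of 16 were tested. Gpd2, the mitochondrial glycerol phosphate dehydrogenase, measured 0.09, 0.20, 0.42 and 0.25, above 0 on all 4 arrays. Its diet effect was 0.24 ± 0.06 (SE, n = 4, limma adjusted p = 0.168), or 0.23 with equal dye size. Coq5, which acts in ubiquinone synthesis, was at 0.11 ± 0.07 but at -0.09 with equal dye size. Of 6 tested inner-membrane carriers of 8 listed, the phosphate carrier Slc25a3 was at 0.17 ± 0.08 and the transhydrogenase Nnt at 0.04 ± 0.06. With equal dye size Slc25a3 was at 0.06 and Nnt at 0.10. Of 9 tested regulators of 13 listed, 2 were above 0 in the main fit. That count is not the same with equal dye size, and their median went from -0.02 to -0.01. The coactivator Ppargc1a measured 0.13, -0.25, -0.31 and -0.35. Its diet effect was -0.19 ± 0.07 (SE, n = 4, limma adjusted p = 0.268), or -0.18 with equal dye size. The mitochondrial transcription factor Tfb2m was at -0.10 ± 0.06 but at 0.02 with equal dye size. Of 19 listed assembly factors, 6 were found by symbol and tested. Among these 6, Ecsit was at 0.10 ± 0.06 and Atpaf2 at -0.06 ± 0.06, and with equal dye size both were at 0.01. The COX11 and COX15 homolog probes, also of listed factors, carry no symbol and are given under complex IV.

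Between 80.3% and 95.8% of spots were well above background per array and dye, and 56 of 62 members were so in both diets on all 4 arrays. The hepatocyte markers Ttr, Apoa1 and Arg1, 3 of 7 listed, were well above background in both diets on all arrays. Their values ran from -0.04 to 0.19. No marker of another cell type passed the correction: 5 of 6 macrophage, 3 of 5 skeletal muscle, 3 of 4 adipocyte and 2 of 4 stellate cell markers were tested and lay between -0.12 and 0.13. The 2 of 5 exocrine pancreas markers tested, Pnlip and Ctrb1, were at 0.33 ± 0.12 and 0.45 ± 0.16, where Ctrb1 measured 1.36 on array 4 and 0.11 to 0.17 on the others, and the erythroid marker Hba-a1 at -0.34 ± 0.27 (SE, n = 4 each). Hba-a1 measured -0.60, 1.00, -0.22 and -1.55 on arrays 1 to 4 and was saturated in the control channel on 1 array, so its ratio is uncertain. The part of all these markers in the members' values was not tested.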

How the data were processed

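Liver RNA pools were compared on 4 Agilent 2-colour arrays read with Agilent Feature Extraction A.6.1.1, per the file headers. The authors deposited scanner intensity values per spot, log10 ratios per spot in the series' value table, and a list of significant genes with a ratio, a signed fold (treated as a score) and a p-value from a test that the sources used here do not name. The deposited log10 ratios are the scanner's own, turned to CLA over control, so both gave the same fit.

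In limma 3.58.1 (R 4.3.3) the mean foreground and median background intensities were corrected with normexp (offset 50), normalised by loess within arrays with control spots at weight 0, cleared of outlier spots and averaged per probe. Of 22393 spots, 1075 were controls. Probes well above background in a diet on at least 2 arrays and measured on at least 3 were tested (20214). Each probe was fitted with a dye term and a diet term, and p-values were adjusted by Benjamini-Hochberg over all tested probes at 0.05. The fit was tested on simulated data. Summaries used Python 3.11.15 and pandas 2.3.3.

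The members, lists and tests were chosen with earlier results of these data known. Members named in full are, in each complex, the 3 with the lowest p, the highest and the lowest, and the members that belong to isoform pairs by gene symbol. Of each list, up to 2 by p are named. The result of 1 listed marker is not reported here. The flavoprotein 2 probe, Cox5a and other members were added after their values were seen. Gene symbols came from RefSeq (GRCm38.p6) by accession for 8947 probes and from the description for 510. Alternatives covered background correction, scaling, the filter, the dye term, the deposited ratios and leaving out each array.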

Additional observations from a re-analysis of the deposited data

How the results depend on the processing

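The count of 0 members passing the correction held under all 12 alternatives, with the lowest adjusted p of a member between 0.0504 (without array 3) and 0.978 (no dye term). The count over all probes was not stable. From 14 it went to 0 in limma without background subtraction, on the scanner's processed signals, on the deposited ratios, with a dye effect of equal size and with no dye term. Unadjusted p under 0.05 was then met by 3421, 2763, 2763, 1500 and 293 probes. It went to 149 with median centring (31 higher and 118 lower, against 7 and 7) and to 52 with a strict filter on dim probes, and leaving out 1 array gave 2 (array 2) to 71 (array 4), with 40 without array 1 and 62 without array 3. Median centring moved the medians of complexes I, III, IV and V to -0.163, -0.081, -0.165 and -0.197. Equal dye size gave 0.051 for complex IV and 0.036 for complex V, and the processed signals and the deposited ratios gave 0.105 for complex III. Leaving out 1 array gave medians of 0.036 to 0.069 for complex I, 0.030 to 0.088 for complex III, -0.024 (without array 3) to 0.016 for complex IV and -0.0095 (without array 2) to 0.049 (without array 3) for complex V. Of 22 fully named members, 8 changed sign under some alternative: Ndufb7, the beta subcomplex 9 probe, the saturated Cox2 probe, Cox7a2l and Cox8a with median centring, Cox6a1 with median centring and without array 1 or 3, Atp5g1 without array 3 and Cox8b without array 4. The cause was not tested. A block for slide or scan date was not run, since each slide holds 1 array and no scan date was used. The extraction day recorded for array 2 differs from that of the other 3 arrays, so a block for that day is the fit without array 2. No sample label ties that day to the extraction of RNA. No paired analysis was possible because each array already compares a CLA pool with a control pool in 1 group of 4 arrays.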
